A study of Homo sapiens with 9 samples.

Results

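Gene signal was described in untreated HT1080 cells, an established human fibrosarcoma line, growing on fibrillar collagen. All 3 untreated arrays of the 9 in the series were used, chosen by their titles, and the arrays of cells given protease inhibitors entered no calculation. The titles call these samples vehicle and the other labels call them untreated. The sources used here give neither the vehicle nor the time of harvest. Bovine dermal collagen at 1.7 mg/ml was polymerized for 4 h, and cells seeded on top had 24 h to adhere, in 10% serum. Total RNA, 6 µg per sample, was labelled with biotin and hybridised to one-colour Affymetrix arrays. The design text calls the 3 replicates biological, and all come from 1 cell line.

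Fibrosarcoma cells are tumour cells of mesenchymal type, and HT1080 is widely used to study how cells cut and cross collagen. Collagenases such as MMP1 cut fibrillar collagen, membrane-bound MMP14 activates MMP2, and urokinase (PLAU) on its receptor (PLAUR) turns plasminogen into plasmin. TIMPs block metalloproteinases, many serpins block serine proteases, and cystatins block cysteine proteases such as cathepsins. Cells hold collagen through integrins that pair the beta 1 chain with an alpha chain for collagen, and through DDR receptors and MRC2, which takes collagen up.

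Each of 19775 genes was represented by the brightest of its probe sets that name it alone, by mean intensity over the 3 arrays. Intensity is on a linear scale with a trimmed mean of 100 on every array. It also depends on how well a probe set hybridises, so a rank orders signal, not transcript amount. Genes at or below 24.0 were called near background. That is the 95th percentile of 82 olfactory receptor genes, which most tissues do not express. Genes from there to the trimmed mean were called dim, the top 10% (from 658) bright, and the rest moderate. These rules put 1978 genes (10.0%) in the bright class, 5041 (25.5%) in the moderate, 3604 (18.2%) in the dim and 9152 (46.3%) near background. A gene near background was not detectable by this measure, which does not show that it was absent. Every ± below is an SD over the 3 arrays, and values given in threes are in the order replicate 1, 2 and 3.

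The 3 arrays were alike, more so in bright than in dim signal. Pearson's r between them, across probe sets on linear intensities and as a description, was 0.9949 to 0.9977. That value is weighted towards the brightest probe sets, and by rank Spearman's rho was 0.881 to 0.891. Between 2 arrays 0.858% of values were equal, so none is a copy of another. The ratio of the 5′ to the 3′ control probe sets was 0.855 to 0.922 for ACTB and 1.05 on every array for GAPDH. In all, 87.6% of genes fell in the same class on each array, 94.3% of the bright and 68.0% of the dim. The median coefficient of variation rose from 5.37% in bright genes to 16.4% in dim and 56.2% in those near background. The limit of the method is the probe set: among 1290 bright genes with several, the brightest lay a median of 36.2-fold above the dimmest, and 169 of them had only 1 above background.

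**Figure D1:**
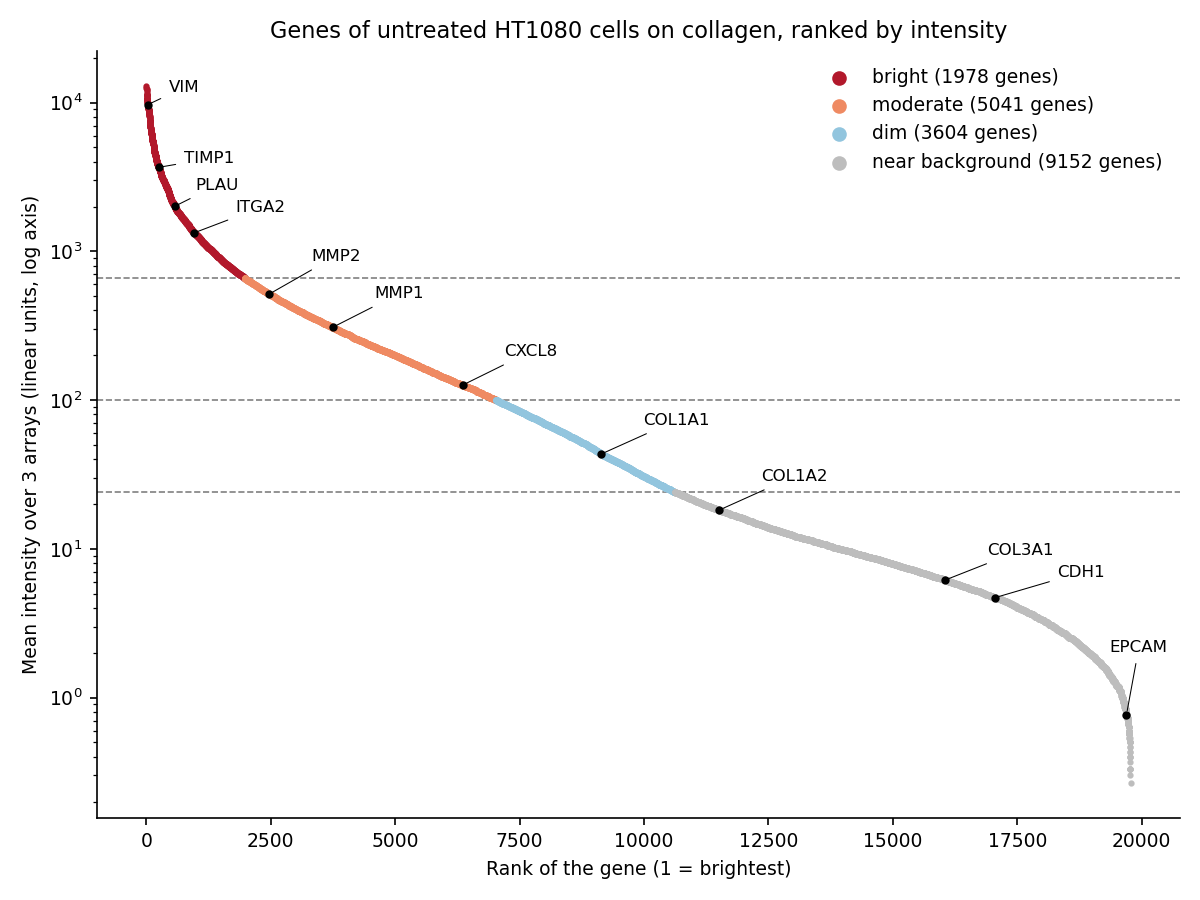
Mean intensity over the 3 arrays (log axis) of 19775 genes against their rank, coloured by class, with dashed lines at the background limit (24.0), the trimmed mean (100) and the bright limit (658). Vimentin and TIMP1 sit at the top of the curve, MMP2 and MMP1 in the moderate class, COL1A1 in the dim class, and COL3A1, CDH1 and EPCAM near background.

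Ribosomal protein genes made up 47 of the 100 brightest, and probe sets cannot separate these from close copies with certainty. The 12 brightest were RPS23, ACTB, RPS10, RPL37A, RPS16, TPT1, RPL31, RPS19, EEF1A1, RPS6, TUBA1B and HUWE1, the last on 1 of its 5 probe sets at that level. Of the 100 brightest genes, 99 had their lowest value on replicate 3. All 24 cell cycle genes lay above background, 20 of them bright, among them cyclin B1 (CCNB1, 3146 ± 108) and thymidylate synthase (TYMS, 3542 ± 84.8). The proliferation marker MKI67 was moderate at 285 ± 21.1.

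Promoters of the classes differed in CG dinucleotides, the sites of DNA methylation. RefSeq (GRCh38.p14) lists exactly 1 promoter of 300 bases, 250 before and 50 after the start, for 11469 of the genes. The median CG content, as observed over expected, was 0.888 in 1210 bright genes, 0.882 in 3030 moderate, 0.822 in 1978 dim and 0.451 in 5251 near background. In the gene lists described below, it was 0.794 for 111 bright or moderate genes and 0.350 for 195 near background. The median GC content was 64.7% in bright and 58.0% in near-background promoters, and the shares of matches below were not adjusted for it. A TATAAA match on either strand was in 5.9% of bright and 14.5% of near-background promoters. It was in 9.4% of the 11469 and 11.5% of all 35116 promoters in the table. TGANTCA, the letters of an AP-1 site, was in 5.4% and 7.5%, and CCAAT in 40.7% and 35.3%. Over the 11469 these were 5.8% and 36.7%, and over all 35116 they were 7.7% and 34.6%. In the gene lists CCAAT went the other way, in 26.1% of bright or moderate and 36.4% of near-background promoters. TATAAA there was in 13.5% and 20.5%, and TGANTCA in 9.0% and 10.3%. A match is a description of letters, not of binding. The 3 promoters shown, with each CG in capitals, are examples of a count at the median of bright genes and of low counts in both classes: the bright collagen receptor chain ITGA2 (chr5:52989102-52989401, plus strand), the bright cytokine IL1B (chr2:112836730-112837029, minus strand) and the near-background stromelysin MMP10 (chr11:102780579-102780878, minus strand).
ITGA2: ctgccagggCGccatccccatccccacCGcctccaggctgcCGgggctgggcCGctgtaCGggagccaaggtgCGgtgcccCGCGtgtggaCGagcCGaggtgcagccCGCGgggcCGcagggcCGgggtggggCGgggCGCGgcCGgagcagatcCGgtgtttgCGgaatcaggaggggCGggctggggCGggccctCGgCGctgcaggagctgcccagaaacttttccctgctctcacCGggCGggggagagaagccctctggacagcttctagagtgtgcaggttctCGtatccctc
IL1B: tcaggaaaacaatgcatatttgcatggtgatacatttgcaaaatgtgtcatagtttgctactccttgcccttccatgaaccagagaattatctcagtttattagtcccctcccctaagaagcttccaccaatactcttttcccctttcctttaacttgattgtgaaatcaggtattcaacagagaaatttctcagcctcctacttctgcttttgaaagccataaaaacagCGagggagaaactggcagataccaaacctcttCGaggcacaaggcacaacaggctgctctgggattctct
MMP10: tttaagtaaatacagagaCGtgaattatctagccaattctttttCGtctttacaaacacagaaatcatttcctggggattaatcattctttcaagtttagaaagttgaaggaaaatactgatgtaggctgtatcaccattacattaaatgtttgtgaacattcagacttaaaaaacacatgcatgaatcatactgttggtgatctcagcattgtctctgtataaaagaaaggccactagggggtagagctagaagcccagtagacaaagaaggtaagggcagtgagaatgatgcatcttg
The ITGA2 promoter holds 27 CG, and those of IL1B and MMP10 hold 2 each. IL1B was thus bright with as few CG as a gene near background. The MMP10 promoter held 1 match to TGANTCA, 1 to TATAAA and 1 to CCAAT, while that of IL1B held 1 to CCAAT alone and that of ITGA2 held none of the 3 motifs.

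Gene lists of proteases, inhibitors, matrix, adhesion, cytokines and lineage held 809 genes, of which 762 were measured by a probe set of their own. Of these, 78 were bright, 137 moderate, 143 dim and 404 near background, and their median lay at the 43.6th percentile of all genes, where the median gene lies at the 50th. Over all genes 10623 of 19775 lay above background, and a list with a share near that does not stand out from them. By category, 13 of 157 genes in the protease lists were bright and 86 near background. The 13 include PLAUR, ANXA2, S100A10, ENO1, KRT8 and the calpain subunit CAPNS1, which are not proteases. Of 61 inhibitor genes, 6 were bright and 38 near background. In matrix genes these counts were 17 and 54 of 136, and in adhesion genes 18 and 38 of 100. In cytokines and their receptors they were 13 and 110 of 185, and in lineage markers 13 and 93 of 149. The lists with the highest medians were the plasminogen system, myofibroblast and smooth muscle markers, collagen maturation enzymes and focal adhesion proteins. Those with the lowest were skeletal muscle, endothelial, hepatocyte and gut markers and the chemokines.

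**Figure D2:**
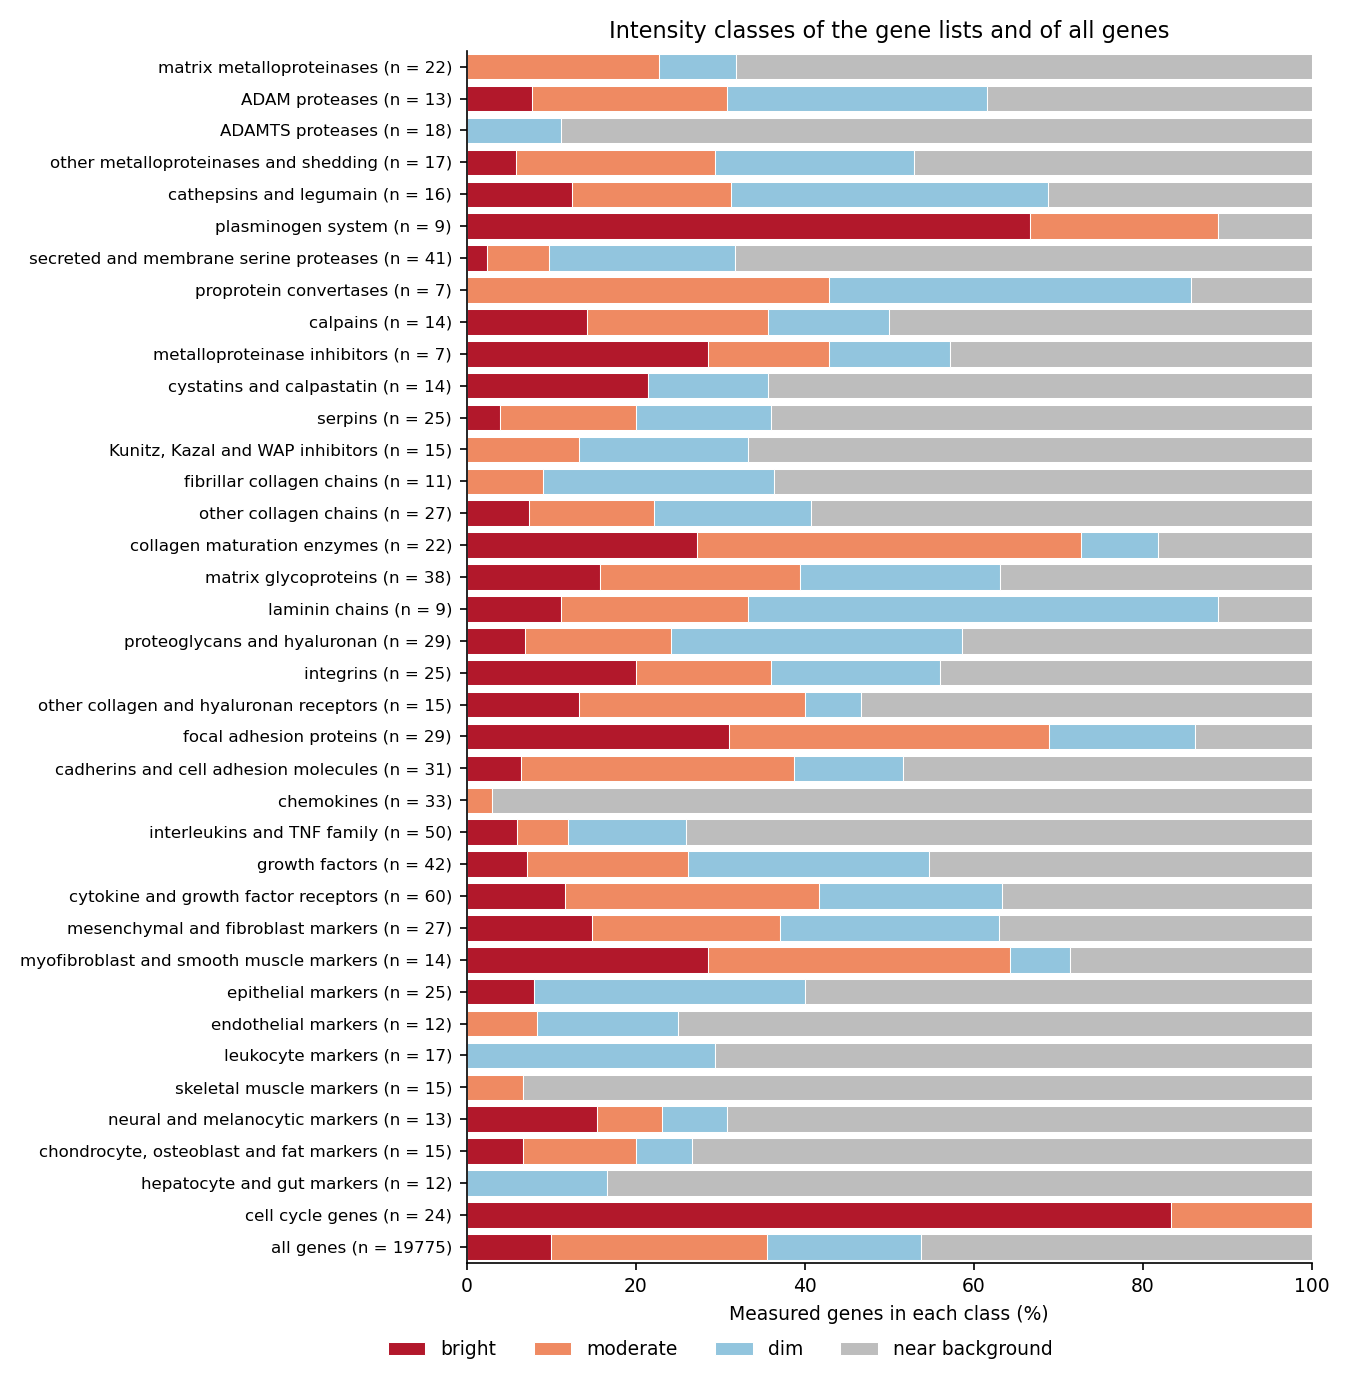
Share of each gene list's measured genes (%, horizontal axis) that was bright, moderate, dim or near background, with the number measured after each name, and all 19775 genes in the last bar. The plasminogen system (6 of 9 bright) and cell cycle genes (20 of 24 bright) stand at one end and chemokines (32 of 33 near background) at the other.

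Matrix metalloproteinases were a family of few detected members. Of 22 measured, none was bright, 5 were moderate, 2 were dim and 15 lay near background, a median at the 33.8th percentile. The 5 moderate ones were a collagenase, 2 gelatinases, a membrane-type enzyme and a stromelysin. MMP2, a gelatinase, read 541, 488 and 520 (516 ± 26.6), at the 87.5th percentile. MMP14, the membrane-type enzyme that cuts collagen at the cell surface, read 408, 428 and 376 (404 ± 25.8). MMP1, the interstitial collagenase, read 303, 295 and 325 (308 ± 15.6). All 3 enzymes stayed in the moderate class on every array. MMP3, a stromelysin, read 231, 248 and 254 (244 ± 11.9), and MMP9, the other gelatinase, 217, 183 and 181 (194 ± 20.1). For MMP14, 4 of 4 probe sets were above background, whereas for MMP2 it was 1 of 3, the others at 18.6 and 1.43. MMP1, MMP3 and MMP9 have 1 probe set each. The collagenases MMP8 (5.17 ± 6.88) and MMP13 (1.90, 1.00 and 1.20) were near background on every array. So were matrilysin MMP7 (14.5 ± 4.50), stromelysin MMP10 (10.2 ± 8.36) and the macrophage elastase MMP12 (7.80 ± 3.39). Membrane-type MMP16 was dim at 53.6 ± 3.83, with 4 of 5 probe sets above background. MMP28 was also dim by its mean (33.1 ± 19.1), but read 45.5, 11.1 and 42.7, so replicate 2 lay near background.

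ADAM sheddases cut growth factors and receptors from the cell surface. Of 13 ADAM genes, 1 was bright, 3 moderate, 4 dim and 5 near background, shares close to those of all genes. ADAM9 read 786, 730 and 755 (757 ± 28.0). ADAM10, which sheds Notch and cadherins, read 500, 478 and 457 (478 ± 21.7). ADAM17, which releases TNF and EGF receptor ligands, read 245, 234 and 201 (227 ± 23.1). ADAM10 and ADAM17 each had 3 of 3 probe sets above background. The secreted ADAMTS enzymes, which cut proteoglycans and procollagens, were near background in 16 of 18 genes. ADAMTS6 (70.0 ± 15.4) and ADAMTS13 (29.6 ± 12.0) were the dim exceptions. Among 17 other metalloproteinases 1 was bright, aminopeptidase N (ANPEP, 1174, 1107 and 981), in which 1 of 3 probe sets was above background. Neprilysin (MME) was moderate at 373 ± 20.2, and BMP1, which trims procollagen, at 104 ± 2.38, next to the trimmed mean.

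The plasminogen system had the highest median of the protease lists, with 6 of 9 genes bright, 2 moderate and 1 near background. Of the bright ones only PLAU is a protease, and the others are its receptor or bind plasminogen. Urokinase, PLAU, read 1960, 2082 and 1986 (2009 ± 63.9), at the 97.1th percentile. Its receptor PLAUR read 1407, 1422 and 1458 (1429 ± 26.0). Both genes were bright on every array, and all their probe sets, 2 and 3, were above background. Tissue activator PLAT was moderate at 362, 452 and 480 (431 ± 61.8). Plasminogen itself (PLG), which the liver makes, was near background at 1.30, 6.80 and 12.4. The cell-surface proteins that bind plasminogen were bright: annexin A2 (ANXA2) at 7697 ± 718, its partner S100A10 at 4131 ± 250 and enolase (ENO1) at 8934 ± 493. These 3 have other main roles in the cell, and keratin 8, counted in the same list, lay just inside the bright class at 665 ± 48.3.

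Lysosomal and cytosolic cysteine proteases showed a few bright members in each list. Of 16 cathepsin and legumain genes, 2 were bright, 3 moderate, 6 dim and 5 near background. Cathepsin B (CTSB) read 2077, 2121 and 2068 (2089 ± 28.2), with 5 of 5 probe sets above background. Cathepsin L (CTSL) read 774, 793 and 957 (841 ± 101). The aspartic protease cathepsin D (CTSD) read 94.2, 99.4 and 120 (104 ± 13.4) on its single probe set, which straddles the trimmed mean. Cathepsin K (CTSK), the collagen-cutting enzyme of osteoclasts, was near background at 10.9, 19.3 and 11.5. Among 14 calpain genes, 2 were bright, 3 moderate, 2 dim and 7 near background. Calpain 2 (CAPN2) read 6635, 7112 and 6549 (6765 ± 304), and the shared small subunit CAPNS1 2148 ± 151. Calpain 1 (CAPN1), the other widely expressed large subunit, was moderate at 162 ± 24.0.

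Serine proteases outside the plasminogen system were mostly near background, in 28 of 41 genes. PRSS23, a secreted protease, read 1530, 1515 and 1626 (1557 ± 60.1) and was the 1 bright member. Mitochondrial HTRA2 (551 ± 34.3) and secreted HTRA1 (299 ± 6.04) were moderate, as was tissue factor (F3, 149 ± 3.24), the receptor that starts coagulation. The list of proprotein convertases, some of which activate MMP14 and integrin precursors, also counted the site proteases MBTPS1 and MBTPS2. It had no bright member among 7. FURIN was dim at 66.5, 79.0 and 86.2 (77.2 ± 9.97), and the site proteases MBTPS1 (307 ± 35.7) and MBTPS2 (465 ± 27.6) were moderate.

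**Figure D3:**
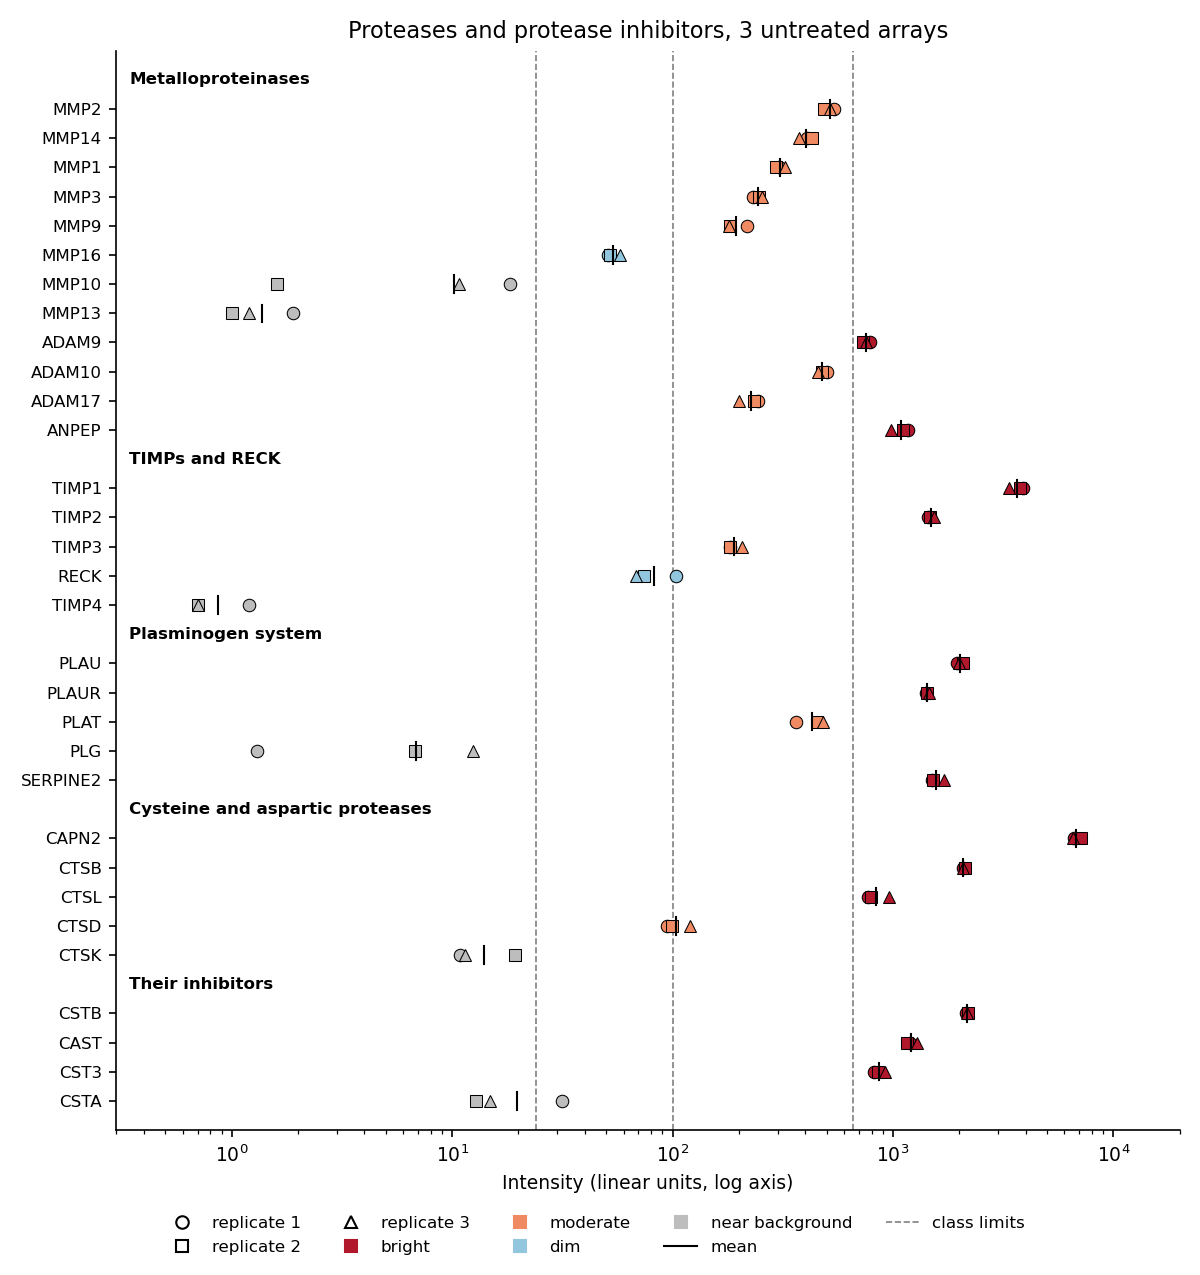
Intensity (log axis) of 31 protease and inhibitor genes on each of the 3 arrays, with the mean as a vertical bar, colours for the class of the mean and dashed lines at 24.0, 100 and 658. TIMP1, TIMP2, PLAU, PLAUR, CTSB and CAPN2 lie to the right of the bright limit on every array, and MMP13, TIMP4 and PLG lie at the left with arrays further apart.

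Inhibitors of metalloproteinases were led by 2 bright TIMPs. TIMP1, which blocks most secreted MMPs, read 3885, 3761 and 3359 (3668 ± 275), at the 98.7th percentile. TIMP2, which blocks MMP14 and also takes part in the activation of MMP2, read 1439, 1478 and 1532 (1483 ± 46.8), with 3 of 3 probe sets above background. TIMP3, which binds to the matrix and also blocks ADAM17, was moderate at 183, 183 and 206 (191 ± 12.9). TIMP4 was near background at 1.20, 0.700 and 0.700, and the membrane-anchored inhibitor RECK was dim at 104, 74.0 and 68.5 (82.2 ± 19.1). The list of 7 thus spans all 4 classes, with 2 bright, 1 moderate, 1 dim and 3 near background.

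Inhibitors of cysteine proteases were either bright or hardly detected. Of 14 cystatin and calpastatin genes, 3 were bright, none was moderate, 2 were dim and 9 near background. Cystatin B (CSTB), an intracellular inhibitor of cathepsins, read 2145, 2194 and 2176 (2171 ± 24.8). Calpastatin (CAST), the calpain inhibitor, read 1196, 1159 and 1282 (1213 ± 63.2). Secreted cystatin C (CST3) read 820, 853 and 918 (864 ± 50.0), on 1 of 3 probe sets. The bright cathepsins and calpains described above were thus measured beside bright inhibitors of the same enzyme classes, on different probe sets that cannot be set against each other in amount.

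Among 25 serpins, 1 was bright, 4 moderate, 4 dim and 16 near background. SERPINE2, which blocks thrombin and urokinase, read 1501, 1520 and 1697 (1573 ± 108), on 1 of 2 probe sets. SERPINB8 (543 ± 56.0), SERPINB5 (maspin, 525 ± 72.5, on 1 of 2 probe sets), the collagen chaperone SERPINH1 (377 ± 13.6) and SERPINB7 (218 ± 15.7) were moderate. Of 15 Kunitz, Kazal and WAP inhibitors, 10 were near background, and APP (335 ± 32.1) and APLP2 (189 ± 23.6), which carry a Kunitz domain in some isoforms, were moderate.

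The collagen chains of the matrix on which the cells grew were dim or near background in the cells themselves. Of 11 fibrillar collagen chains, none was bright, 1 was moderate, 3 were dim and 7 near background. COL1A1 read 43.7, 39.9 and 46.7 (43.4 ± 3.41), with 2 of 5 probe sets above background. COL1A2, the other chain of type I collagen, read 15.2, 25.1 and 14.4 (18.2 ± 5.96), with 0 of 3 above. COL3A1, of the type III collagen of soft tissue, lay at 6.17 ± 1.02, with 0 of 5 above. Of the type I chains, COL1A1 was thus dim and COL1A2 near background, and the single moderate chain was COL27A1 at 155, 123 and 87.0 (122 ± 34.2).

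Other collagen chains were bright or moderate in 6 of 27 genes, and 16 lay near background. COL6A3, of the beaded filaments of type VI collagen, read 1176, 1309 and 1148 (1211 ± 85.9). COL6A1 (304 ± 18.7, on 2 of 8 probe sets) and COL6A2 (125 ± 12.0), the other chains of that trimer, were moderate. The transmembrane collagen COL13A1 read 773, 766 and 744 (761 ± 15.1), with 3 of 3 probe sets above background. The basement membrane chains COL4A1 (348 ± 22.9) and COL4A2 (424 ± 28.8) were both moderate.

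Enzymes and chaperones of collagen maturation were detected in 18 of 22 genes, 6 bright and 10 moderate. The prolyl isomerase PPIB read 3868, 4098 and 4048 (4005 ± 121). P4HB, the shared subunit of the prolyl hydroxylases, read 2135, 2177 and 1969 (2094 ± 110). CRTAP, of the prolyl 3-hydroxylase complex, was bright at 1800 ± 118. PPIB and P4HB serve the folding of many secreted proteins, so their signal is not particular to collagen. The collagen crosslinking enzyme LOXL2 read 1251, 1338 and 1217 (1269 ± 62.7), on 2 of 4 probe sets, and LOX was moderate at 393 ± 20.1. The lysyl hydroxylases PLOD3 (673 ± 52.2), PLOD2 (514 ± 17.5) and PLOD1 (198 ± 12.0) lay in the bright or moderate class.

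Glycoproteins of the matrix were detected in 24 of 38 genes: 6 were bright, 9 moderate, 9 dim and 14 near background. SPARC, which binds collagen, read 2928, 3286 and 3074 (3096 ± 180). Fibronectin (FN1) read 1542, 1369 and 1284 (1399 ± 131), with 5 of 7 probe sets above background. IGFBP7 (2009 ± 124), EFEMP1 (1535 ± 36.6) and the matricellular CCN1 (1028 ± 112) were also bright. Tenascin C (TNC, 64.1, 80.4 and 59.4, on 1 of 3 probe sets) was dim, and periostin (POSTN, 3.30, 6.80 and 5.70) was near background. Of 9 laminin chains, LAMB3 was bright at 1078 ± 30.1, LAMC1 (417 ± 16.4) and LAMB1 (307 ± 15.3) were moderate, and 5 alpha or beta chains were dim. Of 29 proteoglycan and hyaluronan genes, 2 were bright, serglycin (SRGN, 2704, 2673 and 2866) and syndecan 1 (SDC1, 1050, 984 and 957). Decorin (DCN, 3.50, 21.7 and 5.30) and lumican (LUM, 11.8, 13.3 and 5.70), the small proteoglycans of fibroblast matrix, were near background on every array.

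**Figure D4:**
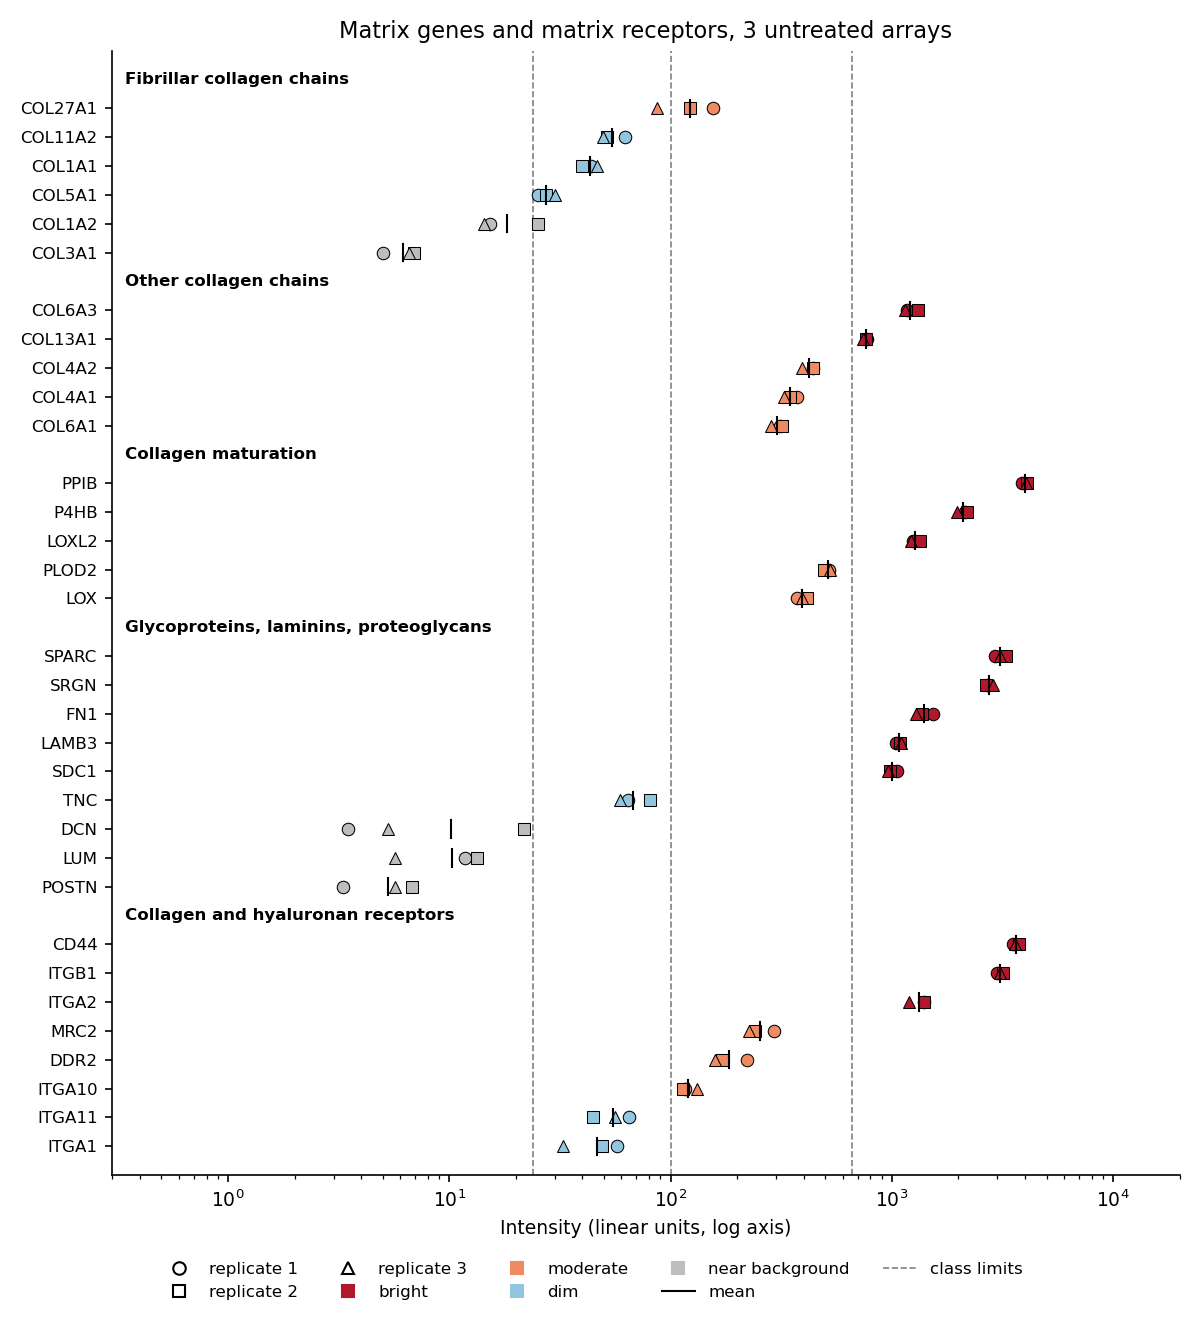
Intensity (log axis) of 33 matrix and matrix receptor genes on each of the 3 arrays, with the mean as a vertical bar, colours for the class of the mean and dashed lines at 24.0, 100 and 658. Maturation enzymes, SPARC, FN1, CD44, ITGB1 and ITGA2 lie at the right, and COL1A2, COL3A1, DCN, LUM and POSTN lie left of the background limit by their means.

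Among the integrin chains that bind collagen, beta 1 and alpha 2 were bright and the other alpha chains moderate or dim. ITGB1 read 2994, 3195 and 3066 (3085 ± 102), on 3 of 7 probe sets, which read 3085, 1100 and 1026 on average, while the other 4 lay at 17.9 or less. ITGA2 read 1403, 1398 and 1193 (1331 ± 120), with 2 of 2 above background. ITGA10 was moderate at 116, 114 and 131 (120 ± 9.06). ITGA11 (65.2, 44.4 and 55.9) and ITGA1 (57.3, 49.2 and 32.6) were dim, each on 1 of 3 probe sets. On each array the collagen-binding alpha chain in the bright class was therefore alpha 2 alone. Over all 25 integrin genes, 5 were bright, 4 moderate, 5 dim and 11 near background. Alpha 5 (ITGA5, 681 ± 63.3), the fibronectin receptor chain, and beta 5 (ITGB5, 1213 ± 41.3), the vitronectin receptor chain, were bright. The other 3 probe sets of ITGB5 read 168, 64.4 and 58.3 on average, so it was dim without _s_at and _x_at probe sets. ITGAE (1062, 895 and 974), a chain known from lymphocytes, was bright on its single probe set. Its partner ITGB7 (22.2, 3.30 and 10.7) and its ligand E-cadherin (CDH1) were near background.

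Other matrix receptors were led by CD44, the hyaluronan receptor, at 3543, 3744 and 3615 (3634 ± 102), with 10 of 13 probe sets above background. CD47, which binds thrombospondin, was bright at 1577 ± 158. The collagen uptake receptor MRC2 read 292, 241 and 227 (253 ± 33.8), with 2 of 2 probe sets above background. The collagen receptor kinase DDR2 read 222, 170 and 159 (184 ± 33.9), with 4 of 4 above, and the related DDR1 was not analysed here. MRC2 and DDR2 were moderate on every array. CD36, a scavenger receptor that also binds collagen, was near background at 6.70 ± 8.69, with 0 of 5 above.

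Focal adhesion proteins, which tie integrins to actin, were detected in 25 of 29 genes, 9 of them bright. Actinin 1 (ACTN1) read 2952, 3253 and 3206 (3137 ± 162), and caveolin 1 (CAV1) 2974, 3100 and 3074 (3049 ± 66.4). TGFB1I1 (2066 ± 99.1), vinculin (VCL, 1632 ± 105, on 1 of 2 probe sets), integrin-linked kinase (ILK, 1365 ± 57.5) and zyxin (ZYX, 893 ± 17.6) were also bright. Actinin 4 (ACTN4) read 1265, 1418 and 1966 (1550 ± 368), highest on replicate 3. Focal adhesion kinase (PTK2, 369 ± 4.41), paxillin (PXN, 296 ± 43.4) and talin 1 (TLN1, 145 ± 35.6) were moderate. SRC was dim at 36.1 ± 3.39, on 1 of 7 probe sets.

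Cadherins and other cell adhesion molecules were near background in 15 of 31 genes and bright in 2, the catenins CTNNA1 (1835 ± 93.8) and CTNNB1 (698 ± 104). N-cadherin (CDH2), typical of mesenchymal cells, was moderate at 202, 193 and 212 (203 ± 9.46), with 2 of 2 probe sets above background. E-cadherin (CDH1), typical of epithelia, was near background at 2.40, 2.10 and 9.60, with 0 of 2 above. The 2 cadherins thus lay in different classes on all 3 arrays. ALCAM (519 ± 73.6) and MCAM (452 ± 19.6, on 1 of 2 probe sets) were moderate, and ICAM1, which inflammatory signals raise, was dim at 26.4, 31.2 and 26.0, close to the limit.

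Chemokines were hardly detected: 32 of 33 measured were near background. The exception was CXCL8, the neutrophil attractant IL-8, at 149, 104 and 126 (126 ± 22.7), with 2 of 2 probe sets above background. CXCL1 (13.9, 8.40 and 12.9), which binds the same receptor CXCR2, and the monocyte attractant CCL2 (5.30, 10.0 and 5.30) were near background. CXCR1 (1.80, 5.50 and 1.70) and CXCR2 (1.80, 2.50 and 4.30), the receptors of CXCL8, were near background too. The ligand was thus measured above the limit on every array and neither receptor on any.

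Of 50 interleukin and TNF family genes, 3 were bright, 3 moderate, 7 dim and 37 near background. IL1B, the secreted inflammatory interleukin 1, read 1610, 1759 and 1818 (1729 ± 108), and its second probe set read 1370, 1504 and 1389. MIF, a cytokine that many cell types hold in stock, read 5659, 6219 and 6003 (5960 ± 283), and IL24 read 1192, 1220 and 1258 (1223 ± 33.2). CSF1, the macrophage growth factor, was moderate at 338 ± 9.37, and LIF at 176 ± 10.9. The other interleukin 1 genes did not share the class of IL1B. IL1A was dim at 47.1, 32.3 and 42.2, on 1 of 2 probe sets, and the receptor antagonist IL1RN was near background at 10.5, 9.10 and 2.30, with 0 of 5 above. The signalling receptor IL1R1 (31.3, 35.8 and 25.8), its partner IL1RAP (44.6, 68.5 and 95.2) and the decoy IL1R2 (43.0, 31.3 and 32.8) were dim. IL6 was dim at 28.5, 38.9 and 27.1, and TNF near background at 8.60, 6.10 and 3.20.

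Of 42 growth factor genes, 3 were bright, 8 moderate, 12 dim and 19 near background, shares close to those of all genes. VEGFA, the angiogenic factor, read 1177, 1390 and 1367 (1311 ± 117), with 4 of 4 probe sets above background. GDF15, a stress-induced member of the TGF-beta family, read 1019, 1247 and 1183 (1150 ± 118), on 1 of 3. TGFB1 read 674, 755 and 632 (687 ± 62.5), across the bright limit, and its other probe set lay near background at 17.7. PDGFC (544 ± 25.3), VEGFC (522 ± 25.1) and HBEGF (494 ± 18.0), a ligand of the EGF receptor, were moderate. Epiregulin (EREG), another ligand of that receptor, was near background at 1.40, 3.40 and 2.50.

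Of 60 receptors of cytokines and growth factors, 7 were bright, 18 moderate, 13 dim and 22 near background. TNFRSF12A, the receptor of the TNF family member TWEAK, read 1864, 2008 and 1931 (1934 ± 72.2), and TNFRSF10B, a death receptor for TRAIL, 1698, 1777 and 1678 (1718 ± 52.6). The receptor kinase AXL read 1215, 1417 and 1665 (1432 ± 225), and the TGF-beta receptor TGFBR2 980, 1107 and 1099 (1062 ± 70.9). AXL had 2 of 2 probe sets above background, and so did TGFBR2. MET read 1094, 940 and 905 (979 ± 101), with 4 of 4 probe sets above background, and its ligand HGF read 24.7, 23.0 and 25.5, at the background limit. IL6ST, the shared signalling chain for IL6 and LIF, was bright at 756 ± 69.5, while IL6R (20.7, 33.6 and 26.0) and LIFR (33.7, 28.8 and 21.9) were dim and crossed the limit. EGFR was moderate at 564, 556 and 435 (518 ± 72.4), with 6 of 9 probe sets above background. PDGFRB was dim at 33.1 ± 6.20, and PDGFRA near background at 3.70, 7.70 and 4.80, with 0 of 4 above.

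**Figure D5:**
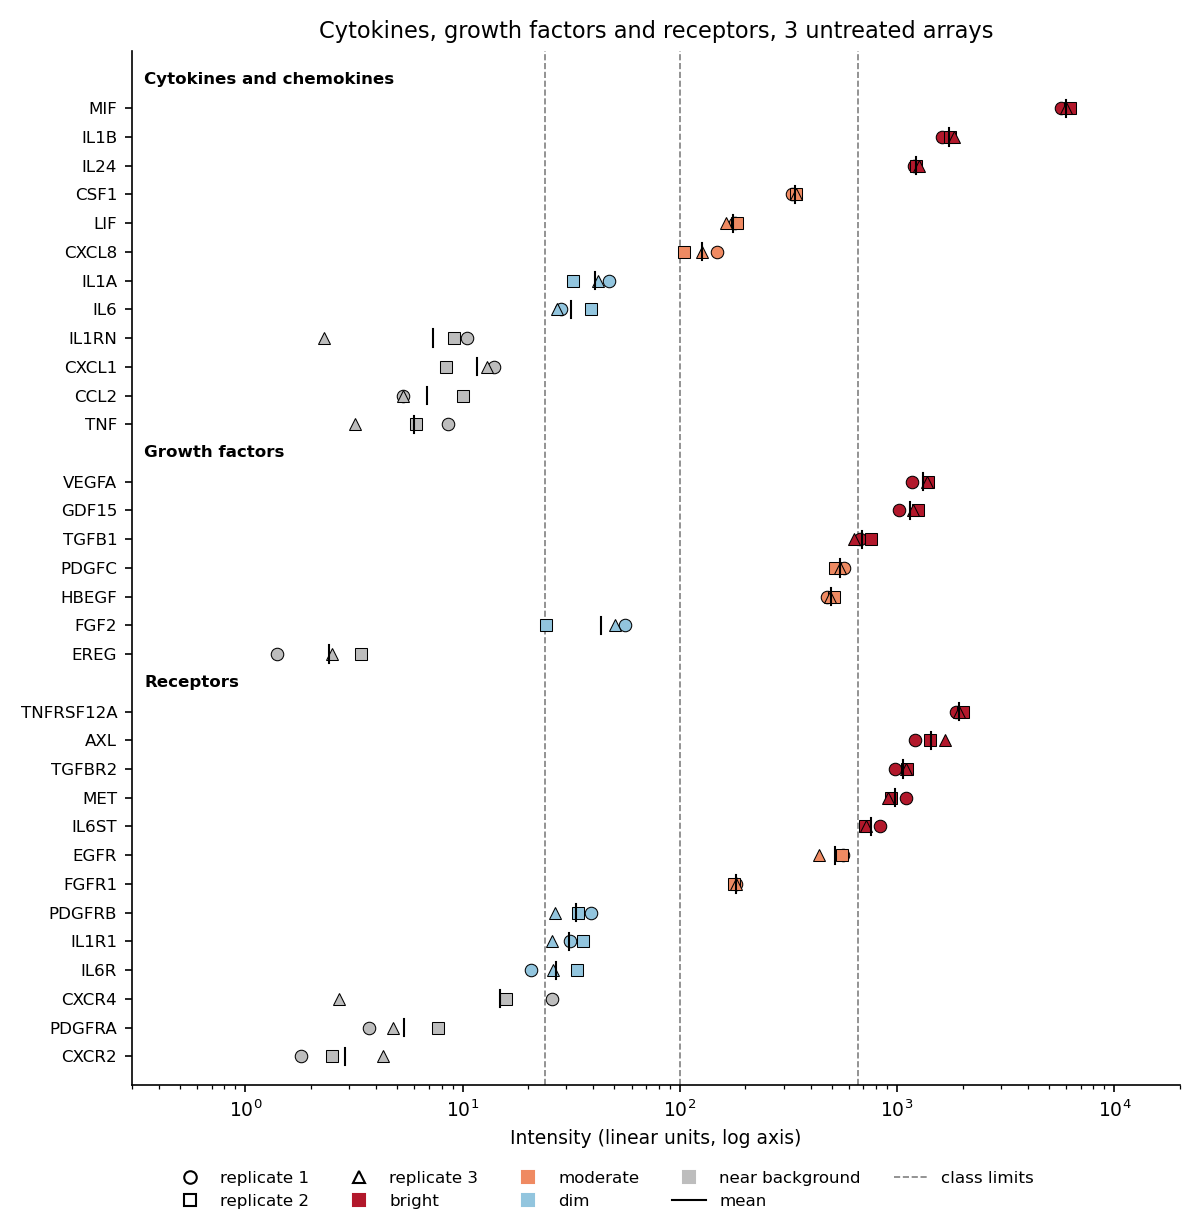
Intensity (log axis) of 32 cytokine, growth factor and receptor genes on each of the 3 arrays, with the mean as a vertical bar, colours for the class of the mean and dashed lines at 24.0, 100 and 658. MIF, IL1B and IL24 lie right of the bright limit, CXCL8 just right of the trimmed mean, and IL1RN, CXCL1, CCL2 and TNF left of the background limit.

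Lineage markers set the cells beside their labelled type. These are bulk samples, in which fewer cells of a type and less RNA per cell cannot be told apart. Vimentin (VIM), the intermediate filament of mesenchymal cells, read 10040, 10476 and 8526 (9681 ± 1023), at the 99.9th percentile, on 1 of 2 probe sets. LGALS1 (8478 ± 623) and S100A6 (8502 ± 371, on 1 of 2) were bright, and the transcription factor SNAI2 read 735, 743 and 820 (766 ± 46.8). ZEB1 (324 ± 32.5) and TWIST2 (292 ± 28.2) were moderate. Some markers of matrix-producing fibroblasts in the same list were low, with DCN, LUM, COL1A2, COL3A1 and PDGFRA near background and THY1 at the limit (35.0, 27.5 and 12.0). Of 27 mesenchymal and fibroblast markers, 4 were bright, 6 moderate, 7 dim and 10 near background. Over all genes 10.0% were bright and 46.3% near background, and the counts give no verdict on the label.

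Contractile genes were widely detected, with 4 of 14 myofibroblast and smooth muscle markers bright and 5 moderate. Tropomyosins TPM1 (4151 ± 25.8) and TPM2 (2898 ± 132) were bright, though TPM2 was dim with its median probe set (33.8). Smooth muscle actin (ACTA2) read 504, 578 and 547 (543 ± 37.4), on 1 of 3 probe sets, and TAGLN was moderate at 147 ± 12.0.

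In each list of markers of other lineages, more than 46.3% of the genes, the share over all genes, were near background. Of 25 epithelial markers, 15 were near background, among them EPCAM (0.300, 1.60 and 0.400) and CDH1, and 8 were dim, among them KRT15 (93.0 ± 9.70) and desmoplakin (DSP, 83.2 ± 8.70). Keratin 18 (KRT18) read 3483, 3925 and 3675 (3694 ± 222) and keratin 8 (KRT8) 610, 689 and 696. These 2 keratins pair in simple epithelia. Each was measured by 1 probe set, of the _x_at type, which can match several transcripts. Of 17 leukocyte markers, 12 were near background, including the pan-leukocyte PTPRC (11.8, 15.8 and 3.80), and 5 were dim. Of 12 endothelial markers, 9 were near background, and PECAM1 (30.2, 17.8 and 31.7) lay at the limit. TIE1 was dim at 110, 97.9 and 90.5, next to the trimmed mean, on 1 of 2 probe sets. ROBO4 was moderate at 265, 312 and 272, with 2 of 2 probe sets above. Of 15 skeletal muscle markers, 14 were near background, and the exception was the slow troponin TNNT1 (349 ± 42.3). Of 12 hepatocyte and gut markers, 10 were near background. Neural markers held 2 bright genes of 13. The tubulin TUBB3 (4642 ± 462) was measured by _x_at probe sets only. The neurofilament NEFL read 1720, 1688 and 1782 (1730 ± 47.8), with 3 of 3 probe sets above. Among 15 chondrocyte, osteoblast and fat markers, the transcription factor SOX9 was bright at 1412, 1340 and 1182 (1311 ± 117). RUNX2 was moderate at 229 ± 8.48 on 1 of 6 probe sets, the other 5 at 9.23 or less, and 11 genes were near background.

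Few genes of clear signal differed between the 3 arrays. Among 6667 genes at or above the trimmed mean on every array, the median ratio of the highest to the lowest array was 1.14, and 14 genes differed at least 2-fold. The 8 widest spreads included 5 genes that were highest on replicate 1, each on an _x_at probe set, which can match several transcripts. NACA4P read 1278, 560 and 590, and CDK13 794, 347 and 381. NLN read 407, 194 and 173, CCDC152 315, 151 and 136, and ATP8B1 276, 112 and 110. The other 3 showed no common order. FOLR1, a folate receptor, read 2283, 2220 and 238, so replicate 3 stood apart, and its other probe set lay near background at 11.7. VANGL1, a planar polarity protein, read 383, 598 and 231, and POLD4, a subunit of DNA polymerase delta, 144, 256 and 311. None of these 8 is in the lists above, and the source of their spread was not tested.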

How the data were processed

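RNA of 3 untreated HT1080 samples was read on Affymetrix arrays of 54675 probe sets. The authors deposited 1 intensity per probe set and array, in linear units. The submitters' processing notes name R 2.9.2 and RMA with no role. The values were not on a log scale, and every array had a mean of 100 once 2% of values were trimmed from each end. How probes were summarised, and any detection calls, are not stated in these sources. The number of arrays limits the precision.

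Probe sets were named through GEO's platform annotation, with symbols updated through the RefSeq gene table: 62 were controls, 41091 named 1 gene (41037 matched, 54 kept the platform's symbol), 1801 named several and 11721 were not listed. Analysis used Python 3.11.15 with pandas 2.3.3 and numpy 2.4.6. The calculation of the classes was run on simulated data. There the probe sets of a gene shared the same level and the classes lay far apart. That run checked the calculation, not the classes of the genes measured here. No test was run, as there is 1 group. The rule for named genes took the 12 brightest, the 4 brightest detected members of each list, the 8 with the widest spread between arrays and a set of genes of known role. Further list members are named for their role or their place near a limit, after their values were seen. Members and lists were chosen with earlier results of these data known. Alternatives were another probe set per gene, another background or bright limit, quantile normalization, medians, and each array left out. The authors' treated arrays were not used.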

Additional observations from a re-analysis of the deposited data

Results flagged for a closer look

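Signal lay in probe sets that the gene ranking could not use. Of 11721 probe sets not listed in the annotation used, 1858 (15.9%) lay above the background limit, against 46.5% of the named ones, and 161 were above the bright limit on all 3 arrays. By their means 176 of the 11721 were bright, a smaller share than the 6.33% of the named ones. Their genes are unnamed here, and they took no part in the ranking.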

How the results depend on the processing

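The count of genes near background (9152) ranged from 8071 to 13223 over all settings, and that of listed genes near background (404 of 762) from 347 to 562. The highest values came from taking each gene's dimmest probe set, and the lowest from leaving the receptor genes near HBE1 out of the background, an alternative chosen after seeing the data. Taking the median probe set gave 10508 and 473, a second set of silent genes gave 10165 and 470, and quantile normalization 9131 and 404. Background limits at the 90th and 99th percentile gave 8193 and 10748 genes, with 354 and 489 from the lists. Without _s_at and _x_at probe sets, 9272 of 17098 genes and 396 of 636 listed genes lay near background, and 45 of 142 named genes changed class. ANPEP, GDF15, TGFB1, FN1, ENO1, CTNNA1, APLP2 and MCAM then lay near background. FN1 (5 of 7), ENO1 (3 of 4), CTNNA1 (4 of 5) and APLP2 (7 of 8) had several probe sets above background, all of the types left out. ANPEP and GDF15 had 1 of 3 above, and TGFB1 and MCAM 1 of 2. The count of bright listed genes (78) became 47 when bright meant the top 5% and 138 for the top 20%, and was 64 to 78 under the other settings. Without 1 array in turn it was 74 to 78, with 8918 to 9182 genes near background. Of 184 genes named by the rule, 51 changed class with the median probe set, among them MMP2, ITGB1, GDF15, ANPEP, CST3, ACTA2, RUNX2 and COL1A1, whose median probe set is near background, whereas 0 changed under quantile normalization and at most 5 without 1 array. Dim signal limits the rest: 68.0% of dim genes kept their class on all 3 arrays. No paired analysis was possible because there is 1 group.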

Other observations

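Embryonic globin, HBE1, which was listed here as a silent gene, read 691, 805 and 779 (759 ± 59.6, SD, n = 3), while its other probe set read 3.63 on average and adult beta globin (HBB) read 31.7, 24.7 and 16.6. Some olfactory receptor genes that neighbour HBE1 ranked high in their family. OR51B4 read 43.3, 61.9 and 60.6, OR51B5 42.2, 52.4 and 36.6, and OR51B2 38.7, 21.0 and 24.7. Of the 10 brightest receptor genes, 6 lie within 15 protein-coding genes of HBE1 in the RefSeq order, and the median was 20.1 for the 9 receptor genes in that window and 7.83 for the other 73. The neighbours OR51M1 (8.83), OR51I1 (8.03) and OR52A1 (11.9) lay near the family's median of 8.05, and OR1I1 (25.1) and OR2H2 (24.0), on other chromosomes, ranked above 6 of the 9. The window was set after these values were seen, and the source of the signal was not tested.

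HUWE1, a ubiquitin ligase, ranked among the 12 brightest genes on 1 probe set at 11254, 11436 and 9678, while its other 4 probe sets averaged 396, 18.2, 12.7 and 5.67. ITGAE, NEFL, KRT18 and SOX9 were bright genes usually linked to other cell types, of which NEFL (3 of 3) and SOX9 (2 of 2) were above background by several probe sets.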
